A study of Mus musculus with 10 samples.

Results

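The 44 genes described here act in ribosome biogenesis and in transcription by RNA polymerase I. They were taken by gene symbol, for their known roles and with earlier results of these data known. They come from the 41388 Ensembl genes counted in mouse liver RNA. All 44 had a row in each of the 10 libraries and passed the filter on low counts. Polyadenylated RNA from whole liver was sequenced from male C57B/6J mice aged about 12 weeks, with 1 library per mouse. The WT Refed group (n = 2) had no food for 22 h and was then refed for 2 h, and the WT Fasting (n = 3) and NAMPT LKO Fasting (n = 5) groups were killed after 24 h without food. All mice carried LoxP sites in both copies of Nampt. NAMPT LKO mice also carried Albumin-cre, which is active in hepatocytes, so that other liver cells keep the gene, and their WT littermates had no Cre. The paper describes a shorter fast and mice fed at random, and the times of the sample labels are used here. In whole liver, less RNA of a gene per cell and fewer cells that express it cannot be told apart.

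Ribosomes are built in the nucleolus. RNA polymerase I transcribes the long precursor of the ribosomal RNAs, small nucleolar ribonucleoproteins (snoRNPs) guide its chemical modification, and large sets of assembly factors fold, cut and package it into the small (40S) and large (60S) subunits. This is among the most costly activities of a cell, and in liver, as in other tissues, it is known to follow nutrient supply through growth signalling and the transcription factor MYC. Ribosomal RNA itself carries no poly(A) tail and was not measured, so every value below is the level of a messenger RNA for a factor of the pathway.

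Total counts were 42170825 and 43218540 in the WT Refed livers, 33947232 to 43434139 in the WT Fasting livers and 30603080 to 41160486 in the NAMPT LKO livers, and the 44 genes had 96 to 11425 counts each in a library. Levels are given as CPM, counts scaled to a common library size, after adjustment of the libraries by the TMM method, and were compared by edgeR's quasi-likelihood test over 13444 genes. A gene was called when its Benjamini-Hochberg adjusted p was at or under 0.05. Nampt, the targeted gene, was at 12.1, 14.0, 11.8, 12.5 and 15.3 CPM in the NAMPT LKO livers against 63.0, 73.4 and 141 CPM in WT Fasting livers (log2 fold change -2.81, SE 0.22, adjusted p = 0.00102). Sums over cell type markers are in CPM by library total alone, without the TMM adjustment. The TMM factors ran from 0.854 in NAMPT LKO mouse 5 to 1.05 in WT Refed mouse 1. Whether the marker sums overlap in the same way after that adjustment was not tested. Hepatocyte markers, 6 genes, summed to 61941 to 96650 CPM in each library. The summed CPM of hepatocyte, macrophage, endothelial, lymphocyte, neutrophil, red blood cell, adipocyte and cell cycle markers overlapped between every pair of groups. That of 6 bile duct markers was 35.0 to 51.2 CPM in NAMPT LKO livers, 15.3 to 21.2 in WT Fasting and 20.7 to 23.2 in WT Refed livers. That of 6 stellate cell markers was higher in NAMPT LKO (241 to 307 CPM) than in WT Refed livers (216 and 217), and that of 7 exocrine pancreas markers, with Cpa1, Prss2 and Amy2a5 at 0 in every library, was 3.64 to 5.34 CPM in NAMPT LKO livers against 6.22 to 7.404 in the others. The part of these cells in the results was not tested. NAMPT LKO mouse 5 stood apart, with 21.1% of its counts on mitochondrial genes against 7.42% to 12.9% in the other 9 libraries.

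To see whether the promoters of these genes share known elements, the 250 bases before each RefSeq start (GRCm38.p6) were searched on both strands for CACGTG, the E-box that MYC and related factors can bind, for CCGGAA, the core of ETS factor sites, and for the longer NRF1 motif. Windows were found for 38 of the 44 genes. The E-box was present in 2 of the 38 (5.26%), against 9.87% of 9541 tested protein-coding genes with a window, and the NRF1 motif in 0 of 38 against 2.58%. The ETS core was present in 14 of 38 (36.8%), against 2385 of the 9541 tested genes. Other genes of the pathway, described further below, had windows for 116. Of these, 14 held the E-box (12.1%, where 9.87% of the tested genes did), 52 the ETS core (44.8%) and 2 the NRF1 motif (1.72%). Among the 15 genes with a window that were called lower in WT Fasting than in WT Refed livers, 7 held the ETS core, and of the 23 that were not called 7 did.

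Shown here, 5′ to 3′ toward the start, are the windows of Heatr1 and Bysl, which were called lower in WT Fasting livers in every fit that left out 1 library, of Nop2, the only called gene with an E-box, and of Ncl, which was not called. These were chosen after the values were seen. Capitals mark CACGTG and CCGGAA or its reverse complement. The windows lie at chr13:12395125-12395374 (plus strand, Heatr1), chr17:47611493-47611742 (minus strand, Bysl), chr6:125131633-125131882 (plus strand, Nop2) and chr1:86359456-86359705 (minus strand, Ncl) of GRCm38.
Heatr1: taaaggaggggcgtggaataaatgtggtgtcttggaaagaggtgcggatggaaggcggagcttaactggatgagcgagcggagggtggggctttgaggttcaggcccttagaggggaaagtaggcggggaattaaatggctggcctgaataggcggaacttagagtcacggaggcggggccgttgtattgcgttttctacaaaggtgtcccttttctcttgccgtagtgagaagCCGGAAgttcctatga
Bysl: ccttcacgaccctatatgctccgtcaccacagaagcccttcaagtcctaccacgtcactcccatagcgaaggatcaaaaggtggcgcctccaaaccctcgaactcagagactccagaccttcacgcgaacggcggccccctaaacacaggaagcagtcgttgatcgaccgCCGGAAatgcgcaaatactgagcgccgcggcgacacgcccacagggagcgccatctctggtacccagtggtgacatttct
Nop2: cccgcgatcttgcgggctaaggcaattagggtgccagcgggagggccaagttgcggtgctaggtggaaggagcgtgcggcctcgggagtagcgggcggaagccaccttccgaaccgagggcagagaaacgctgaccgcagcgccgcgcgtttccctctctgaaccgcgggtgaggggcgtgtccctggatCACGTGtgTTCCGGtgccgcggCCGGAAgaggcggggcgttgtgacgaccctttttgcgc
Ncl: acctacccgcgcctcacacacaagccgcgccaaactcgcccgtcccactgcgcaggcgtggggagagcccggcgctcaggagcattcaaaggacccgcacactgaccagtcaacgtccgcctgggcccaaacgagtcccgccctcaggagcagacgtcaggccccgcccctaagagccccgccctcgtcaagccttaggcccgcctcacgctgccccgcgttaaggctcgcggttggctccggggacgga
The Heatr1 window held 1 ETS core, starting 16 bases before the start site, and the Bysl window 1, starting 80 bases before it. In Nop2 the E-box began 60 bases before the start and was followed by ETS cores, 1 on each strand, at 52 and 38 bases. Ncl held neither. These are matches of letters, and no binding was measured.

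WT Fasting livers were compared with WT Refed livers to ask how these genes differed between the 2 feeding states. No group of mice that had not fasted was sequenced, so a drop during the fast and a rise after refeeding cannot be told apart. A fall here means only a lower level in the fasted than in the refed livers. Messenger RNAs for ribosome assembly were lower in the fasted livers: 16 of the 44 genes were called and all 16 were lower (36.4%), where 4.36% of the 13444 genes were called lower and 7.04% were called in either direction. By sign, 41 of the 44 were lower, and 38 were lower in every WT Fasting than in every WT Refed liver, against 25.1% of all genes. The median log2 fold change of the 44 was -0.51, and that of all genes 0.04. Because the 44 were chosen with earlier results of these data known, these shares describe the list and do not test it. With these few mice the count of calls depended on single libraries, and was 9 without WT Refed mouse 1, 3 without WT Refed mouse 2 (Rrp12, Heatr1 and Bysl) and 28 without NAMPT LKO mouse 5, which enters the estimate of the spread. Of all genes, 1.45%, 0.798% and 16.7% were called in those fits. The direction did not: 40 to 42 genes were lower when any 1 WT library was left out. Leaving out a NAMPT LKO library hardly enters these fold changes, and 41 genes were then lower each time.

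**Figure D1:**
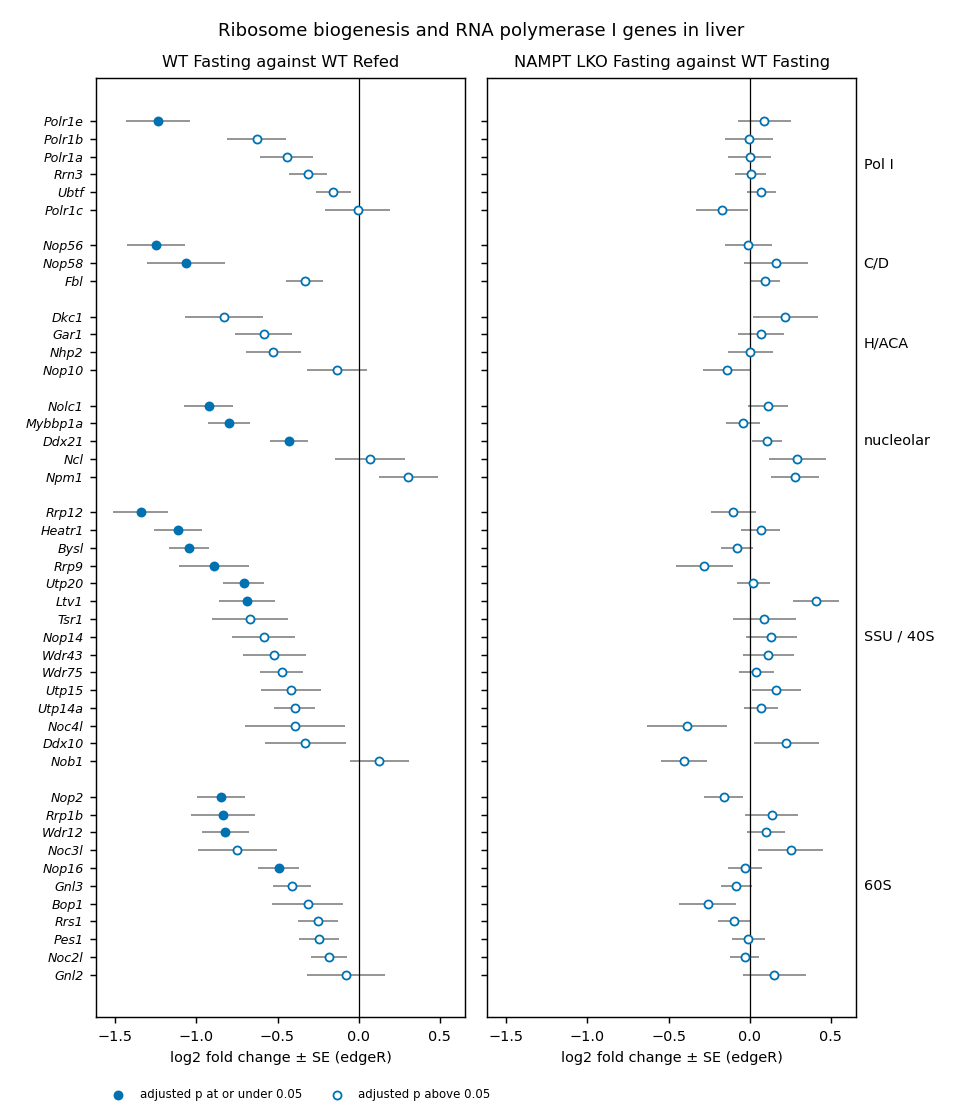
Log2 fold change (horizontal axis, points, with SE as bars) of the 44 genes, one per row and grouped by role, in WT Fasting against WT Refed livers (left) and NAMPT LKO Fasting against WT Fasting livers (right). Filled points mark an adjusted p at or under 0.05 (edgeR): 16 genes on the left, all below 0, and 0 genes on the right, where the points lie between -0.41 and 0.41.

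Of the 6 genes of RNA polymerase I transcription, Polr1e alone was called in WT Fasting against WT Refed livers. Polr1e (ENSMUSG00000028318, chr4:45018583-45036565, plus strand) encodes the PAF53 subunit, which helps the enzyme engage with its initiation factors. Polr1e expression was 7.62 and 7.89 CPM in the WT Refed, 3.43, 3.44 and 3.01 CPM in the WT Fasting and 3.73, 3.08, 2.82, 3.96 and 3.93 CPM in the NAMPT LKO livers. No fasted liver of either genotype exceeded 3.96 CPM and neither refed liver fell below 7.62, and the level was 2.35-fold lower in WT Fasting than in WT Refed livers (log2 fold change -1.24, SE 0.20, adjusted p = 0.00511). Polr1a encodes the largest subunit of the enzyme, which forms the active site together with the product of Polr1b. The values of Polr1a were 28.6 and 30.1 CPM in WT Refed, 19.1, 22.0 and 23.7 CPM in WT Fasting and 19.5, 23.6, 25.7, 17.8 and 21.3 CPM in NAMPT LKO livers. For Polr1b, the WT Refed livers had 19.4 and 21.3 CPM, the WT Fasting livers 14.8, 10.5 and 14.2 CPM and the NAMPT LKO livers 15.6, 14.2, 12.0, 12.7 and 11.3 CPM. Both refed livers exceeded all 8 fasted livers for both genes, but neither passed the test in WT Fasting livers (Polr1a, log2 fold change -0.44, SE 0.16, adjusted p = 0.135; Polr1b, log2 fold change -0.63, SE 0.18, adjusted p = 0.0646).

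Rrn3 and Ubtf, whose products bring the enzyme to the ribosomal gene, were not called. Rrn3 encodes TIF-IA, the factor through which growth signals license initiation. Rrn3 was at 20.8 and 23.3 CPM in the WT Refed livers, 18.3, 16.7 and 18.1 CPM in the WT Fasting livers and 17.1, 18.4, 17.1, 17.97 and 18.4 CPM in the NAMPT LKO livers. The refed values were above all the others, and the difference in WT Fasting livers was not called (log2 fold change -0.31, SE 0.12, adjusted p = 0.137). Ubtf encodes UBF, the architectural factor that keeps ribosomal genes open. Ubtf expression was 68.0 and 65.5 CPM in the WT Refed, 61.4, 59.5 and 58.8 CPM in the WT Fasting and 69.8, 61.1, 62.9, 58.0 and 63.0 CPM in the NAMPT LKO livers. WT Fasting values were the lowest of the WT livers by a small margin (log2 fold change -0.16, SE 0.11, adjusted p = 0.434), and NAMPT LKO mouse 1 exceeded both refed livers. Polr1c, a subunit shared with RNA polymerase III, had the smallest log2 fold change of the 6. The values of Polr1c were 14.2 and 12.8 CPM in WT Refed, 13.8, 13.2 and 13.3 CPM in WT Fasting and 13.0, 12.6, 13.3, 12.8 and 7.92 CPM in NAMPT LKO livers. Refed and WT Fasting livers overlapped (log2 fold change -0.0065, SE 0.20, adjusted p = 0.99), and only NAMPT LKO mouse 5 stood below the rest.

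**Figure D2:**
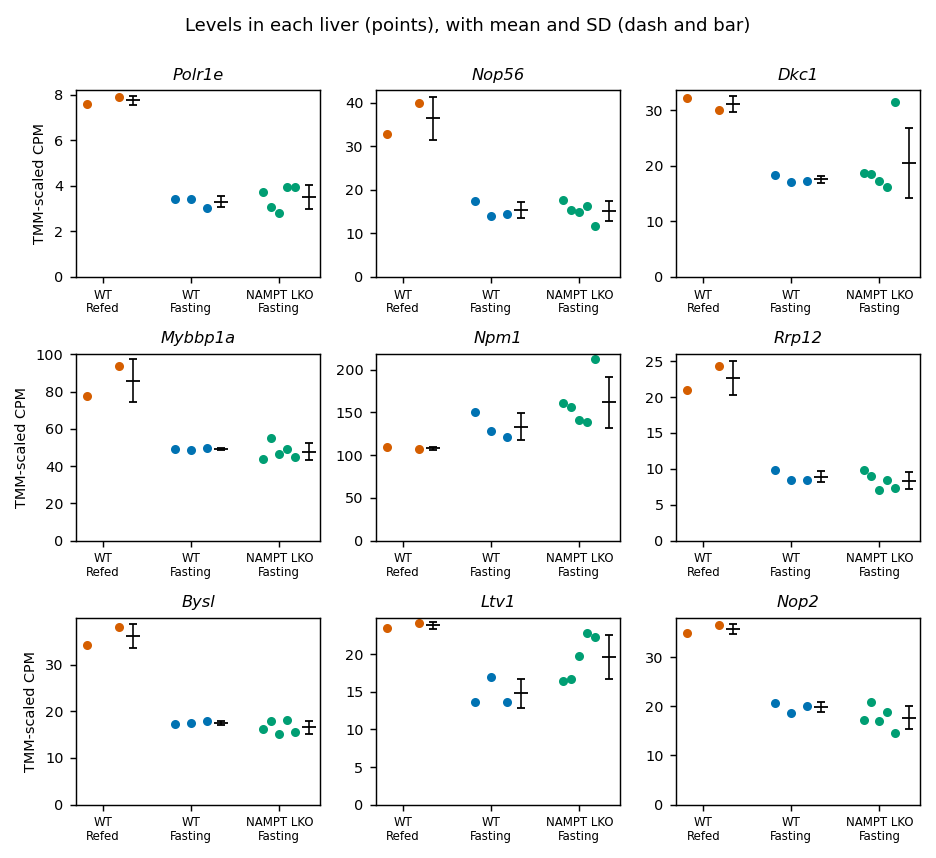
TMM-scaled CPM (vertical axes, from 0) of 9 genes in each of the 10 livers (points, coloured by group), with the group mean and SD beside them. For Polr1e, Nop56, Mybbp1a, Rrp12, Bysl and Nop2 both WT Refed livers lie above all fasted livers of either genotype, Npm1 runs the other way, and for Dkc1 and Npm1 the highest NAMPT LKO point is mouse 5.

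Box C/D snoRNPs add methyl groups to ribosomal RNA. Nop56 (ENSMUSG00000027405, chr2:130274430-130279313, plus strand) and Nop58 encode the paired scaffold proteins, and both were lower in WT Fasting livers. For Nop56, the WT Refed livers had 32.9 and 39.9 CPM, the WT Fasting livers 17.4, 14.1 and 14.4 CPM and the NAMPT LKO livers 17.8, 15.4, 15.0, 16.4 and 11.6 CPM. No fasted value came near the lower refed value, and the level was 2.38-fold lower in WT Fasting than in WT Refed livers (log2 fold change -1.25, SE 0.18, adjusted p = 0.00325). Nop58 was at 38.1 and 42.3 CPM in WT Refed and 19.5, 20.6 and 17.5 CPM in WT Fasting livers (log2 fold change -1.07, SE 0.24, adjusted p = 0.0236). Its call held in 5 of the 10 fits that left out a library. Fbl encodes fibrillarin, the methyltransferase of the same particle. Fbl was at 39.6 and 38.8 CPM in the WT Refed livers, 31.5, 29.5 and 32.5 CPM in the WT Fasting livers and 34.8, 35.0, 29.0, 32.7 and 34.7 CPM in the NAMPT LKO livers. All 3 WT Fasting values were below both refed values, and the difference was not called (log2 fold change -0.33, SE 0.11, adjusted p = 0.112).

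Box H/ACA snoRNPs convert uridine to pseudouridine, and 0 of their 4 proteins were called. Dkc1 (ENSMUSG00000031403, chrX:75095854-75109777, plus strand) encodes dyskerin, the pseudouridine synthase. Dkc1 expression was 32.2 and 30.2 CPM in the WT Refed, 18.3, 17.1 and 17.3 CPM in the WT Fasting and 18.6, 18.6, 17.3, 16.2 and 31.6 CPM in the NAMPT LKO livers. All 3 WT Fasting livers lay far below both refed livers (log2 fold change -0.83, SE 0.24, adjusted p = 0.0664), while NAMPT LKO mouse 5 lay at the refed level. The difference was called in 7 of the 8 alternatives that left out no single library, with adjusted p from 0.000270 (voomWithQualityWeights) to 0.0671 (edgeR, another filter on low counts). Of the 10 fits that left out a library it was called in 1, that without NAMPT LKO mouse 5 (adjusted p = 0.000702, edgeR). Gar1 (log2 fold change -0.59, SE 0.17, adjusted p = 0.0697) and Nhp2 (log2 fold change -0.53, SE 0.17, adjusted p = 0.0941), which encode core proteins of the particle, had every WT Fasting value below both refed values. Nop10, the smallest of the core proteins, overlapped between the groups (log2 fold change -0.14, SE 0.19, adjusted p = 0.721).

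The multifunctional nucleolar proteins split by sign. Nolc1, which encodes a chaperone that shuttles snoRNPs, was lower in WT Fasting livers (log2 fold change -0.92, SE 0.15, adjusted p = 0.0057), as was Ddx21 (log2 fold change -0.43, SE 0.11, adjusted p = 0.0482), an RNA helicase that couples RNA polymerase I with processing. The call of Ddx21 held in 1 of the 10 fits that left out a library. Mybbp1a (ENSMUSG00000040463, chr11:72441355-72451768, plus strand), a nucleolar protein bound to the polymerase and to pre-ribosomes, was also lower. The values of Mybbp1a were 77.6 and 94.0 CPM in WT Refed, 49.3, 48.6 and 50.0 CPM in WT Fasting and 43.6, 54.99, 46.3, 49.4 and 44.8 CPM in NAMPT LKO livers. The 8 fasted livers lay between 43.6 and 54.99 CPM, under both refed livers, and the level was 1.74-fold lower in WT Fasting than in WT Refed livers (log2 fold change -0.80, SE 0.13, adjusted p = 0.00521).

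Npm1 and Ncl, which encode nucleophosmin and nucleolin, the abundant histone chaperone and RNA-binding protein of the nucleolus, did not share this direction. Npm1 (ENSMUSG00000057113, chr11:33152287-33163206, minus strand) was the most highly expressed of the 44 per length, at a mean of 52.3 RPKM (reads scaled by library size and exonic length), where the median of the 44 was 5.28 and the lowest was Rrp1b at 0.648. For Npm1, the WT Refed livers had 109 and 107 CPM, the WT Fasting livers 151, 129 and 121 CPM and the NAMPT LKO livers 161, 156, 141, 139 and 213 CPM. Every fasted liver was above both refed livers, yet the difference in WT Fasting livers was not called (log2 fold change 0.31, SE 0.18, adjusted p = 0.358). With limma's voomWithQualityWeights, the only alternative tried that called it, the adjusted p was 0.0390. Ncl (ENSMUSG00000026234, chr1:86344719-86359400, minus strand) averaged 20.2 RPKM. Ncl was at 184 and 181 CPM in the WT Refed livers, 209, 186 and 179 CPM in the WT Fasting livers and 198, 226, 193, 215 and 338 CPM in the NAMPT LKO livers. WT groups overlapped (log2 fold change 0.07, SE 0.22, adjusted p = 0.888), and NAMPT LKO mouse 5 was far above every other liver.

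Factors of the small subunit processome and of 40S assembly held both the largest fall and the lowest p of the 44 genes, with 6 of 15 genes called, all lower in WT Fasting livers. Rrp12 (ENSMUSG00000035049, chr19:41862852-41896153, minus strand), an export factor of pre-ribosomes, had that fall. Rrp12 expression was 21.0 and 24.4 CPM in the WT Refed, 9.87, 8.43 and 8.52 CPM in the WT Fasting and 9.86, 9.07, 7.04, 8.47 and 7.27 CPM in the NAMPT LKO livers. All 8 fasted livers were at or below 9.87 CPM, and the level was 2.54-fold lower in WT Fasting than in WT Refed livers (log2 fold change -1.34, SE 0.17, adjusted p = 0.00169). Bysl (ENSMUSG00000023988, chr17:47599331-47611492, minus strand) encodes bystin, needed for late 40S maturation, and had that p. The values of Bysl were 34.2 and 38.0 CPM in WT Refed, 17.2, 17.4 and 17.9 CPM in WT Fasting and 16.2, 17.9, 15.1, 18.1 and 15.6 CPM in NAMPT LKO livers. The WT Fasting values lay close together and far below both refed values, and the level was 2.07-fold lower in WT Fasting than in WT Refed livers (log2 fold change -1.05, SE 0.12, adjusted p = 0.00123). Of its exonic length, 9.37% overlaps Ccnd3 on the opposite strand, and whether reads were counted by strand is not stated.

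Heatr1 was at 26.6 and 28.4 CPM in the WT Refed and 12.7, 12.6 and 12.8 CPM in the WT Fasting livers, and the level was 2.16-fold lower in WT Fasting than in WT Refed livers (log2 fold change -1.11, SE 0.15, adjusted p = 0.00225). Heatr1 is the large scaffold that links the processome with RNA polymerase I, and its call, like those of Rrp12 and Bysl, held without each library in turn. Rrp9, which binds the U3 small nucleolar RNA, was also lower. For Rrp9, the WT Refed livers had 15.96 and 13.3 CPM, the WT Fasting livers 6.54, 8.34 and 8.77 CPM and the NAMPT LKO livers 5.54, 7.24, 7.23, 7.57 and 4.82 CPM. The lower refed value, 13.3 CPM, exceeded every fasted value (log2 fold change -0.89, SE 0.22, adjusted p = 0.0323). For Rrp9 the call held in 6 of the 10 fits that left out a library. Utp20, a very large processome protein, was lower as well (log2 fold change -0.71, SE 0.12, adjusted p = 0.00793).

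Ltv1 encodes an export adaptor that leaves the 40S precursor at a late step. Ltv1 was at 23.6 and 24.2 CPM in the WT Refed livers, 13.7, 17.0 and 13.7 CPM in the WT Fasting livers and 16.5, 16.8, 19.8, 22.9 and 22.3 CPM in the NAMPT LKO livers. WT Fasting values were below both refed values (log2 fold change -0.69, SE 0.17, adjusted p = 0.0365), and NAMPT LKO values ran from within the WT Fasting range to just under the refed level. The Ltv1 call against refed livers held in 5 of the 10 fits that left out a library. The other 9 genes of this group were not called, and their log2 fold changes ran from -0.67 (Tsr1) to 0.13 (Nob1). Tsr1, Nop14, Wdr43, Wdr75, Utp15, Utp14a, Noc4l and Ddx10 were each lower by sign without overlap between the groups, and Nob1, the endonuclease that makes the last cut of the small subunit RNA, was the one that overlapped. Utp14a, Nop14 and Tsr1 share 11.5%, 5.27% and 32.3% of their exonic length with a gene on the opposite strand.

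Among 11 factors of 60S assembly, Nop2, Rrp1b, Wdr12 and Nop16 were called, all lower in WT Fasting livers. Nop2 (ENSMUSG00000038279, chr6:125131883-125144753, plus strand) encodes a methyltransferase of the large ribosomal RNA that is also known as a proliferation antigen. Nop2 expression was 34.9 and 36.5 CPM in the WT Refed, 20.8, 18.7 and 19.98 CPM in the WT Fasting and 17.2, 20.9, 17.1, 18.9 and 14.5 CPM in the NAMPT LKO livers. All fasted values were at or below 20.9 CPM and both refed values at or above 34.9 (log2 fold change -0.85, SE 0.15, adjusted p = 0.00757). Rrp1b, a nucleolar protein of 60S precursors, was the least expressed of the 44 per length (RPKM). The values of Rrp1b were 7.46 and 7.42 CPM in WT Refed, 4.89, 4.22 and 3.399 CPM in WT Fasting and 5.32, 5.00, 4.03, 4.15 and 4.38 CPM in NAMPT LKO livers. No fasted value exceeded 5.32 CPM, and the refed values were nearly equal (log2 fold change -0.84, SE 0.20, adjusted p = 0.0294). With 1 library left out, the call of Rrp1b held in 6 of 10 fits.

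Wdr12, Pes1 and Bop1 encode the partners of a single complex, PeBoW, which is needed to process the precursor of the large subunit RNAs, and 1 of the 3 was called. Wdr12 was lower (log2 fold change -0.82, SE 0.14, adjusted p = 0.00793), and the differences of Bop1 (log2 fold change -0.32, SE 0.22, adjusted p = 0.43) and Pes1 (log2 fold change -0.24, SE 0.12, adjusted p = 0.277) did not pass. For Bop1, the WT Refed livers had 33.4 and 35.6 CPM, the WT Fasting livers 25.1, 29.1 and 29.0 CPM and the NAMPT LKO livers 26.7, 26.3, 22.4, 25.9 and 14.6 CPM. Both refed livers exceeded all others for Bop1, and NAMPT LKO mouse 5 was the lowest. Nop16 was lower in WT Fasting livers (log2 fold change -0.49, SE 0.13, adjusted p = 0.0419), a call that held in 2 of the 10 fits without a library, and Noc3l (log2 fold change -0.75, SE 0.24, adjusted p = 0.0952), Gnl3 (log2 fold change -0.41, SE 0.12, adjusted p = 0.061), Rrs1 (log2 fold change -0.25, SE 0.13, adjusted p = 0.268), Noc2l (log2 fold change -0.18, SE 0.11, adjusted p = 0.365) and Gnl2 (log2 fold change -0.08, SE 0.24, adjusted p = 0.885) were not called. Only Gnl2 among the 11 overlapped between the WT groups, and 20.9% of the exonic length of Noc2l overlaps a gene on the opposite strand.

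Over each library, the median deviation of the 44 genes from their mean over all libraries, on the log2 scale, was 0.37 and 0.42 in the WT Refed livers. It was -0.05, -0.15 and -0.12 in the WT Fasting livers and -0.08, -0.03, -0.16, -0.11 and -0.09 in the NAMPT LKO livers. The fasted livers of both genotypes lay in 1 range and the refed livers clearly above it. As a share of all counts, the 44 genes took 0.148% and 0.155% in WT Refed livers, 0.106% to 0.119% in WT Fasting livers and 0.113% to 0.121% in NAMPT LKO livers.

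**Figure D3:**
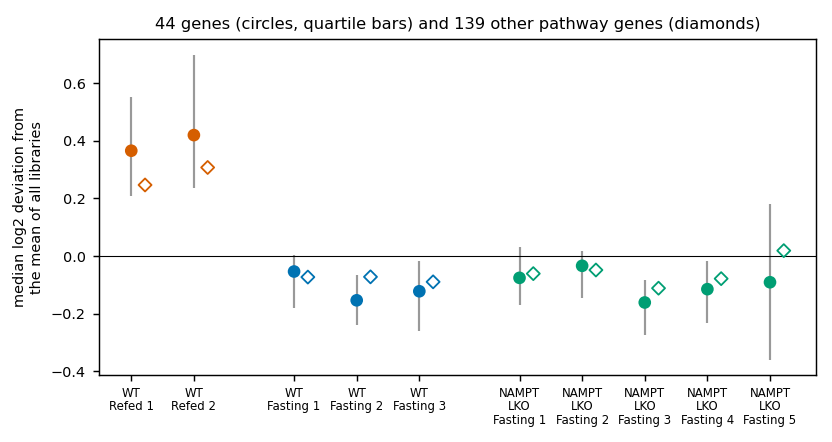
Median log2 deviation from the mean of all libraries (vertical axis) of the 44 genes in each liver (circles, with bars from the lower to the upper quartile of the genes) and of 139 other pathway genes (open diamonds). The WT Refed livers lie at 0.37 and 0.42 and all fasted livers between -0.16 and -0.03, and the quartile bar of NAMPT LKO mouse 5 is the longest of the fasted livers.

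NAMPT LKO Fasting livers were compared with WT Fasting livers to ask whether loss of Nampt in hepatocytes changed these genes in the fast. By edgeR, 0 of the 44 genes were called, where 0.00744% of all genes were, which is Nampt alone. At an unadjusted p under 0.05 there were 2 (Ltv1 and Nob1), where 6.03% of all genes pass. DESeq2, edgeR's exact test and voomWithQualityWeights also called 0, where they called 0.183%, 0.179% and 0.00744% of all genes. The median log2 fold change of the 44 was 0.05, with values from -0.41 to 0.41 and a median SE of 0.14 (largest 0.25). A test that misses its threshold with errors of this size does not show that the levels were equal.

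Ltv1 had a log2 fold change of 0.41 (SE 0.14, unadjusted p = 0.0148, adjusted p = 0.798, edgeR), from 13.7 to 17.0 CPM in WT Fasting and 16.5 to 22.9 CPM in NAMPT LKO livers. Nob1 had a log2 fold change of -0.41 (SE 0.14, unadjusted p = 0.0159, adjusted p = 0.798, edgeR), from 7.998 to 9.70 CPM in WT Fasting and 5.44 to 8.06 CPM in NAMPT LKO livers. In both the groups overlapped. Rrs1, a factor of early 60S assembly, was the only gene whose groups did not (3.99% of all genes), and its values differed little. Rrs1 was at 23.5 and 30.5 CPM in the WT Refed livers, 22.9, 22.4 and 22.8 CPM in the WT Fasting livers and 22.4, 20.8, 21.0, 20.9 and 21.2 CPM in the NAMPT LKO livers. The log2 fold change of Rrs1 was -0.10 (SE 0.10, adjusted p = 0.867, edgeR).

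NAMPT LKO livers were also set against the WT Refed livers, which are the same 2 refed livers as above. Of the 44 genes, 17 were called and all were lower, where 6.58% of all genes were called lower and 11.2% in either direction, and the median log2 fold change was -0.49. This count was 10 without WT Refed mouse 1, 7 without WT Refed mouse 2 and 31 without NAMPT LKO mouse 5, with 2.59%, 1.69% and 21.2% of all genes called. Side by side, the log2 fold changes against refed livers in WT Fasting and in NAMPT LKO livers were -1.34 and -1.44 for Rrp12, -1.25 and -1.26 for Nop56, -1.24 and -1.15 for Polr1e, -1.11 and -1.05 for Heatr1, -1.05 and -1.12 for Bysl and -0.85 and -1.01 for Nop2. The 2 comparisons share the refed livers, and the difference between them is the comparison of the genotypes above, in which 0 genes were called.

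Of the genes called, 14 were called in both comparisons (Polr1e, Nop56, Nop58, Nolc1, Mybbp1a, Heatr1, Utp20, Rrp9, Rrp12, Bysl, Wdr12, Nop2, Nop16 and Rrp1b). Ddx21 and Ltv1 were called in WT Fasting livers alone, and Gnl3, Polr1b and Wdr75 in NAMPT LKO livers alone. Npm1 was at a higher level in NAMPT LKO than in WT Refed livers in all 5 mice, with a log2 fold change of 0.58 (SE 0.17, adjusted p = 0.0512, edgeR), just over the threshold. It was called higher by DESeq2, by edgeR's exact test, by voomWithQualityWeights, with the GC trend removed, without NAMPT LKO mouse 4 and without NAMPT LKO mouse 5.

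**Figure D4:**
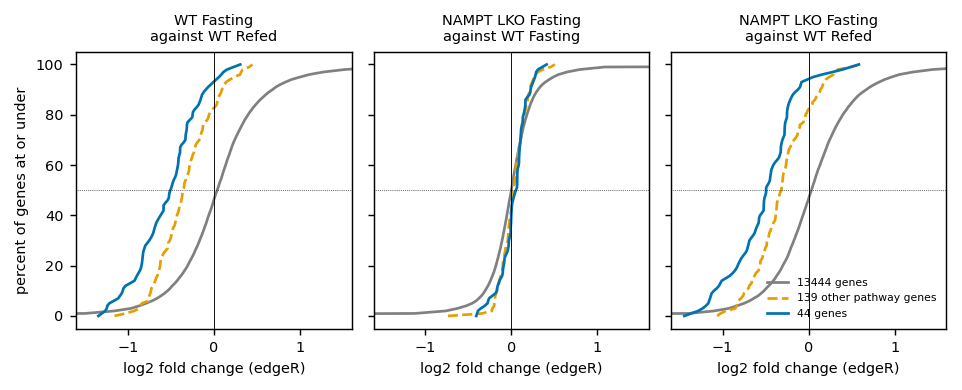
Cumulative distribution (vertical axis, percent of genes at or under a value) of log2 fold changes (horizontal axis, cut at both ends) for all 13444 genes (grey), 139 other pathway genes (dashed) and the 44 genes (blue) in the 3 comparisons. In both comparisons with WT Refed livers the blue line lies to the left, with medians of -0.51 and -0.49, and between the genotypes the 3 lines cross near 0.

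Other genes of the pathway, listed by role and also with earlier results of these data known, were measured in the same fit. Of 143 listed, 141 had a row and 139 passed the filter. Of the 139, 26 were called in WT Fasting against WT Refed livers, all lower (18.7%), where 4.36% of all genes were called lower. The median log2 fold change of the 139 was -0.36. The calls fell on 11 of 47 factors of 60S assembly, 7 of 41 of the small subunit processome and 40S assembly, 5 of 13 of the exosome and its partners and 3 of 8 of box C/D snoRNPs. Among 15 further genes of RNA polymerase I transcription 0 were called (2 at an unadjusted p under 0.05). The count was 14 and 10 without WT Fasting mouse 1 and mouse 2, and 59 without NAMPT LKO mouse 5. Of all genes, 4.01%, 3.47% and 16.7% were called in those fits. It was lower still without either WT Refed mouse, which leaves 1 refed liver.

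Mphosph6, a partner of the exosome that trims the ends of rRNA, had the largest fall of these. Mphosph6 expression was 3.36 and 4.20 CPM in the WT Refed, 1.94, 1.46 and 1.68 CPM in the WT Fasting and 2.40, 1.602, 1.84, 1.85 and 1.80 CPM in the NAMPT LKO livers. All fasted values were below both refed values (log2 fold change -1.16, SE 0.25, adjusted p = 0.0194). Gtpbp4, a GTPase of 60S assembly, and Nol11, a processome protein needed for rRNA transcription, followed. The values of Gtpbp4 were 51.6 and 57.4 CPM in WT Refed, 25.6, 24.9 and 27.8 CPM in WT Fasting and 27.9, 31.9, 28.4, 25.2 and 38.9 CPM in NAMPT LKO livers. Both refed values exceeded every fasted value, the highest of which was 38.9 CPM in NAMPT LKO mouse 5 (log2 fold change -1.06, SE 0.17, adjusted p = 0.00466). For Nol11, the WT Refed livers had 14.7 and 15.8 CPM, the WT Fasting livers 6.92, 8.53 and 7.73 CPM and the NAMPT LKO livers 8.95, 8.20, 8.04, 8.41 and 9.31 CPM. The same order was seen, with no fasted value above 9.31 CPM (log2 fold change -0.98, SE 0.14, adjusted p = 0.00323).

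MYC, MAX and their partners gave 0 calls among 7 genes tested in WT Fasting livers (1 reached an unadjusted p under 0.05). Myc was at 10.4 and 9.27 CPM in the WT Refed livers, 8.86, 4.40 and 5.89 CPM in the WT Fasting livers and 9.76, 9.55, 8.16, 7.22 and 5.05 CPM in the NAMPT LKO livers. The WT Fasting values all lay under the WT Refed values but were widely spread (log2 fold change -0.62, SE 0.31, adjusted p = 0.263), and the NAMPT LKO values reached into the refed range (log2 fold change against WT Fasting livers 0.31, adjusted p = 0.851). Mxi1, which encodes a MAX partner that opposes MYC, was at 21.2 and 19.7 CPM in WT Refed, 31.0, 28.6 and 23.1 CPM in WT Fasting and 30.1, 32.8, 29.0, 32.2 and 29.6 CPM in NAMPT LKO livers. It was called higher in NAMPT LKO than in WT Refed livers (log2 fold change 0.59, adjusted p = 0.0156) and not in WT Fasting livers (log2 fold change 0.43, adjusted p = 0.0874), and the difference between the genotypes was 0.16 on the log2 scale (adjusted p = 0.839). Between the genotypes 0 of the 139 genes were called and 1, Mphosph10, passed an unadjusted p under 0.05.

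The deviation of NAMPT LKO mouse 5 was ordered by base composition within the 44 genes. Its log2 difference from the mean of the other 4 NAMPT LKO livers had a Spearman rho of -0.65 with the GC content of the exons over the 44 genes and of -0.55 over 13369 genes. Both are descriptions of 1 library across genes, which are not independent replicates. Genes of low GC content, such as Dkc1, Nop58, Ncl and Npm1, were high in this mouse, and Noc4l, Bop1, Polr1c and Rrp9, of higher GC content, were low. With the trend of each library with GC content removed, 23 of the 44 genes were called in WT Fasting against WT Refed livers (1483 of all 13444 genes), 26 in NAMPT LKO against WT Refed livers (2137 of all genes) and 0 between the genotypes. The cause of the deviation was not tested.

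**Figure D5:**
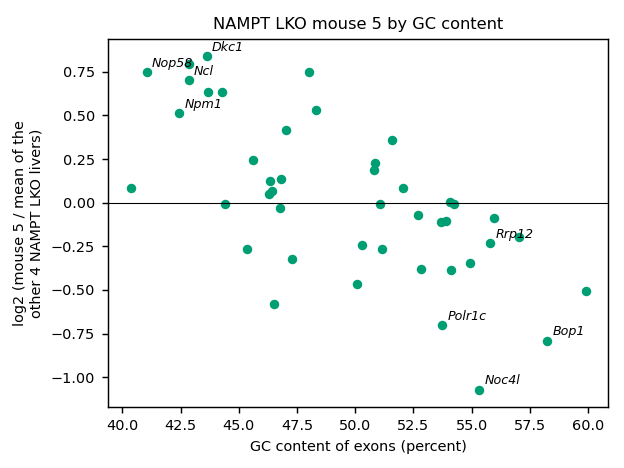
Log2 ratio of NAMPT LKO mouse 5 to the mean of the other 4 NAMPT LKO livers (vertical axis) against the GC content of exons in percent (horizontal axis), with 1 point for each of the 44 genes. The points fall from upper left to lower right (Spearman rho -0.65), with Dkc1 among the highest and Noc4l the lowest.

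Some of these genes also host guide RNAs of the pathway. Genes for small nucleolar RNAs lie within 7 of the 44 (15.9%, 21 snoRNA genes in Nop56, Nop58, Dkc1, Ncl, Wdr43, Tsr1 and Gnl3), against 1.84% of 12047 tested protein-coding genes. Of the 7 hosts, Nop56 and Nop58 were called lower in WT Fasting livers and Ncl had a log2 fold change of 0.07. The small nucleolar RNAs themselves have no poly(A) tail, so that these libraries do not capture them by design. Overlap of host exons with snoRNA genes was at most 2.44% of the exonic length for any single snoRNA gene. Nop56 had several such overlaps, of 2.44%, 2.10%, 1.76% and 1.71%, which add up over its exons.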

How the data were processed

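Liver RNA-seq libraries of 10 mice were used, with each mouse placed in its group by the sample labels. The authors aligned single reads from polyadenylated RNA with STAR (2.5.1a in the submitters' processing notes) to GRCm38 and deposited, for every Ensembl gene, a read count from featureCounts (1.4.6-p5). The deposited CPM values are these counts relative to the library total, and the deposited RPKM values also divide by exonic length. Both were recomputed from the counts without a difference. Whether counting used strand is not given in the sources used here.

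Counts were used as deposited. The filter was a level over 1 CPM in 1 or more libraries, and rRNA genes were removed, which left 13444 of 41388 genes. TMM factors and edgeR 4.0.16 in R 4.3.3 were used for the quasi-likelihood test, in a single model of all libraries with a mean for each group, and p-values were adjusted by Benjamini-Hochberg. The test was checked on counts simulated for WT Fasting against WT Refed livers. It called 44 of 100 genes with a log2 change of 1, 87 of 100 with a change of 2 and 4 unchanged genes. DESeq2 called 62, 88 and 34. A gene that was not called can therefore have changed. Alternatives were DESeq2 1.42.0, edgeR's exact test, voomWithQualityWeights of limma 3.58.1, no TMM, other filters, models of only the groups compared, removal of the GC trend (loess span 0.5), the replicate number as a block and leaving out each mouse. All replicate pairs differed by more than counting noise.

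The 44 genes, the other lists and the motifs were chosen with earlier results of these data known. Values per library are given for the 3 largest called rises and falls of a comparison, the lowest p of each role, the highest and lowest mean RPKM and fixed genes (Polr1a, Polr1b, Rrn3, Ubtf, Fbl, Dkc1, Ncl, Npm1, Nampt and Myc), with the 3 largest falls among the other pathway genes. Heatr1, Nop58, Rrs1 and Mxi1 were added after their values were seen. Promoter windows are those of RefSeq, with 47 windows for 38 of the 44 genes. For 33 of these 38 genes, bases that follow the start site of any window lay within an annotated GENCODE transcript of the gene.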

Additional observations from a re-analysis of the deposited data

Results flagged for a closer look

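In the NAMPT LKO Fasting group, the only one with enough mice for the rule, the gap of the highest or lowest liver to its nearest neighbour was compared with the range of the group for the 44 genes and for the median over the 44 in each liver. The share of the range taken by the gap exceeded Dixon's limit of 0.71 for 6 of the 45 values, where chance gives about 1 in 20 (2.25 of 45). The 45 values come from the same livers, and 1 of them is the median of the other 44. They are not independent, so setting 6 beside 2.25 does not test for an excess. NAMPT LKO mouse 5 accounted for 4 of the 6. It was the lowest for Polr1c (gap 0.894 of the range) and the highest for Dkc1 (0.788), Wdr43 (0.725) and Ncl (0.718). NAMPT LKO mouse 1 was the highest for Wdr75 (0.729) and for Rrs1 (0.745). The 21.1% of counts on mitochondrial genes and the order by GC content in mouse 5 stand beside its 4 values, and their part was not tested.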

How the results depend on the processing

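Of the 44 genes, 16 were called in WT Fasting vs. WT Refed livers. The count was 25 with DESeq2, 34 with voomWithQualityWeights, 31 at an unadjusted p under 0.05 and 3 to 28 when 1 library was left out. Of all genes, DESeq2 called 12.3%, voomWithQualityWeights 24.8%, and 22.3% had an unadjusted p under 0.05. For NAMPT LKO Fasting vs. WT Refed livers, 17 became 26, 35, 34 and 7 to 31 in the same order, and 26 with the GC trend removed, where 16.8%, 31.8% and 26.1% of all genes were called with DESeq2, with voomWithQualityWeights and by unadjusted p. The 26 calls among other pathway genes in WT Fasting vs. WT Refed livers became 42 with DESeq2, 79 with voomWithQualityWeights, 47 with only these groups in the fit and 0 to 59 when 1 library was left out. DESeq2 and voomWithQualityWeights kept all 16 and all 17 calls. The exact test of edgeR called 17 and 18 genes (8.87% and 12.8% of all genes) and kept 15 of the 16 and 16 of the 17. The other filters on low counts kept 15 and 14 of the 16, and each kept 16 of the 17. With only the groups compared in the fit, all 16 and 16 of the 17 were kept, where 12.6% and 8.6% of all genes were called. The cause of these differences was not tested. Scaled by library size without TMM, the median log2 fold changes of the 44 moved from -0.51 to -0.57 and from -0.49 to -0.595, by more than the spread between replicates of a library's median. Between the genotypes 0 genes of either list were called under each alternative, where at most 0.183% of all genes were. At an unadjusted p under 0.05, 2 of the 44 passed, against 6.03% of all genes. Among genes that were not called, signs in WT Fasting vs. WT Refed livers turned in 4 fits, Polr1c (range with 1 library left out -0.0882 to 0.0592) without WT Refed mouse 1 and WT Fasting mouse 2, Ncl (lowest -0.00963) without WT Fasting mouse 1 and Gnl2 (-0.250 to 0.0935) without WT Refed mouse 2.

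With the replicate number as a block (replicate block, libraries 1 to 3 of NAMPT LKO and WT Fasting livers), 0 of the 44 were called and their median log2 fold change was 0.04, as without the block in the same libraries (0 and 0.04). Same-numbered livers are different mice. Their deviations correlated at 0.0764, 0.162 and 0.0968 (mean 0.112), each liver best with its own number, which is a hint from the data and not from the design. Other pairs had a mean of -0.0558. Deviations within each set of 3 livers sum to 0, so this second mean largely follows from the first and adds no evidence. Nampt had an adjusted p of 0.106 in the blocked fit and 0.269 in the other, with a log2 fold change of -2.78 and -2.87.

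With 2 refed mice, any measure against them rests on 2 livers. Leaving out a refed mouse leaves 1, which is then assumed to vary like the other groups.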
